A study of Mus musculus with 14 samples.

Results

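The lysosome digests proteins, glycans, lipids and nucleic acids with soluble hydrolases that work at acid pH, behind a membrane lined by heavily glycosylated proteins. A proton pump, the V-ATPase, keeps it acid: a V0 sector in the membrane carries the protons and a V1 sector on the cytosolic face hydrolyses ATP. Most soluble hydrolases reach the lysosome through a mannose 6-phosphate tag, and the factors Tfeb and Tfe3 activate many lysosomal genes. Neuronopathic Gaucher disease is a lysosomal storage disorder that affects the brain, and conduritol B-epoxide (CBE), an irreversible inhibitor, gives a chemically induced mouse model of it.

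53 lysosomal genes were chosen by symbol and by what their products do: 6 membrane proteins, 13 glycosidases and sulfatases, 9 other soluble proteins (proteases, lipases, nucleases and progranulin), 5 genes of mannose 6-phosphate sorting, 15 genes of the proton pump (5 of V0, 8 of V1 and 2 accessory proteins), 3 channels and exporters, and the 2 transcription factors. The choice was made with earlier results of these data known, so shares called within the set are description and no independent test. 52 of the 53 genes were among the 13866 genes of the count table. Atp6v0c was not analysed here. 51 passed the filter on low counts and were tested among 11852 genes. The remaining gene, Fuca2, a fucosidase, had 2 to 8 counts per library and 0.985 to 4.22 CPM (counts per 1000000 counts, after scaling of library sizes), and is given no test. Hpse passed the filter only through its WT + CBE libraries and Dnase2a only with its CBE libraries, so that a difference was a condition of their being tested. The 52 genes took 0.812 to 1.09% of the counts of a library.

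RNA from the brains of 14 mice aged 19 days was measured by a bulk form of MARSseq, which counts the 3′ ends of transcripts, with 1 library per mouse. 3 C57BL/6JOlaHsd (WT) mice received PBS (WT + PBS) and 3 received CBE at 100 mg/kg (WT + CBE). Injections were intraperitoneal and daily, begun in early postnatal life. 3 MyTrMaSt null mice received PBS (MyTrMaSt + PBS) and 5 received the same dose of CBE (MyTrMaSt + CBE). MyTrMaSt null mice lack Myd88, Ticam1 (encoding TRIF), Mavs and Tmem173 (encoding STING), the adaptors through which most pattern recognition receptors signal, in all tissues, so the genotype comparison is not one of brain cells alone. The design asks which changes after CBE also occur without these adaptors. In bulk tissue, fewer cells of a type and less RNA per cell cannot be told apart.

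Libraries held 1290616 to 3704691 counts, and the median tested gene had 29 to 107 counts per library. The smallest library, WT + PBS replicate 1, stood apart from its group, with a median absolute log2 deviation from the group mean of 0.627 over all tested genes, against 0.174 to 0.359 in the other 13 libraries. Of the deleted genes, Myd88 had 3.11 to 10.8 CPM in the 8 MyTrMaSt libraries and 9.95 to 27.2 CPM in the 6 WT libraries, and was lower than WT after CBE (log2 fold change −1.77, adjusted p = 0.000294). Ticam1, Mavs and Tmem173 were still counted in every MyTrMaSt library and were not called lower. Tmem173 ran against the genotype label in the controls, with 5.02 to 7.05 CPM in MyTrMaSt + PBS and 0.902 to 2.49 CPM in WT + PBS, without overlap (log2 1.62, adjusted p = 0.101), and after CBE it had 6.62 to 12.8 and 6.03 to 8.73 CPM. For these 3 genes, whether the 3′ tags lie outside the deleted parts is not given in the sources used here, so they do not check the labels. Counts of Xist, a transcript of females, were 0 in all WT + PBS libraries, 1 to 47 in WT + CBE, 32 to 46 in MyTrMaSt + PBS and 0 to 39 in MyTrMaSt + CBE, so the sexes were not balanced between the groups. 5 of the 53 genes, Lamp2, Ids, Atp6ap1, Atp6ap2 and Tfe3, are X-linked.

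Every lysosomal gene called after CBE with all libraries in the fit was higher than after PBS. In WT mice 14 of the 51 tested genes (27.5%) were higher at an adjusted p below 0.05, against 6.7% of all tested genes, and 0 were lower, against 3.89%; at an unadjusted p below 0.05, 22 of 51 passed in either direction (against 24.7% of all tested genes), and DESeq2 and limma called 0 lower as well. In MyTrMaSt mice 10 of 51 (19.6%) were higher, against 5.32% of all tested genes, and 0 were lower by edgeR, DESeq2 and limma, against 2.44%, with 19 of 51 below an unadjusted p of 0.05, against 23.7%. All 10 were among the 14. 10 genes in WT and 8 in MyTrMaSt were also at least 2-fold higher, against 5.2% and 3.23% of all tested genes. Without Hpse and Dnase2a, 12 genes were higher in WT and 9 in MyTrMaSt. The median log2 fold change over the 51 genes was 0.18 in WT and 0.15 in MyTrMaSt, against −0.02 and 0.01 over all tested genes. Without WT + PBS replicate 1, 15 genes were higher in WT and 14 in MyTrMaSt, and 0 and 2 were lower. The lowest counts were 9 higher in WT without WT + CBE replicate 3 (Lamp1, Lgmn, Lipa, Tcirg1 and Tfe3 lost) and 7 in MyTrMaSt without MyTrMaSt + PBS replicate 3 (Lamp1, Lgmn and Tcirg1 lost). With the Xist level as a covariate 9 of the 14 were called in WT, without Lamp1, Lgmn, Lipa, Naglu and Tcirg1. The log2 fold changes of these 5 genes were then 0.39, 0.96, 0.86, 1.29 and 1.56, against 0.43, 0.86, 1.01, 1.37 and 1.37 without the covariate. With the WT libraries alone 8 of the 14 were called, without the same 5 and Tfe3.

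37 of the 51 genes were called in neither genotype, and for most of these the data bound the size of any change. In WT the 95% interval of the log2 fold change lay inside 2-fold in both directions for 28 of the 37. Across the 51 genes, the 2 responses, which share no library, had a Pearson correlation of 0.779 and a Spearman correlation of 0.587. Over the 37 genes called in neither genotype the Pearson correlation was 0.241. These correlations are across genes, which are not independent replicates, and over all 11852 tested genes the Pearson correlation was 0.612.

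**Figure D1:**
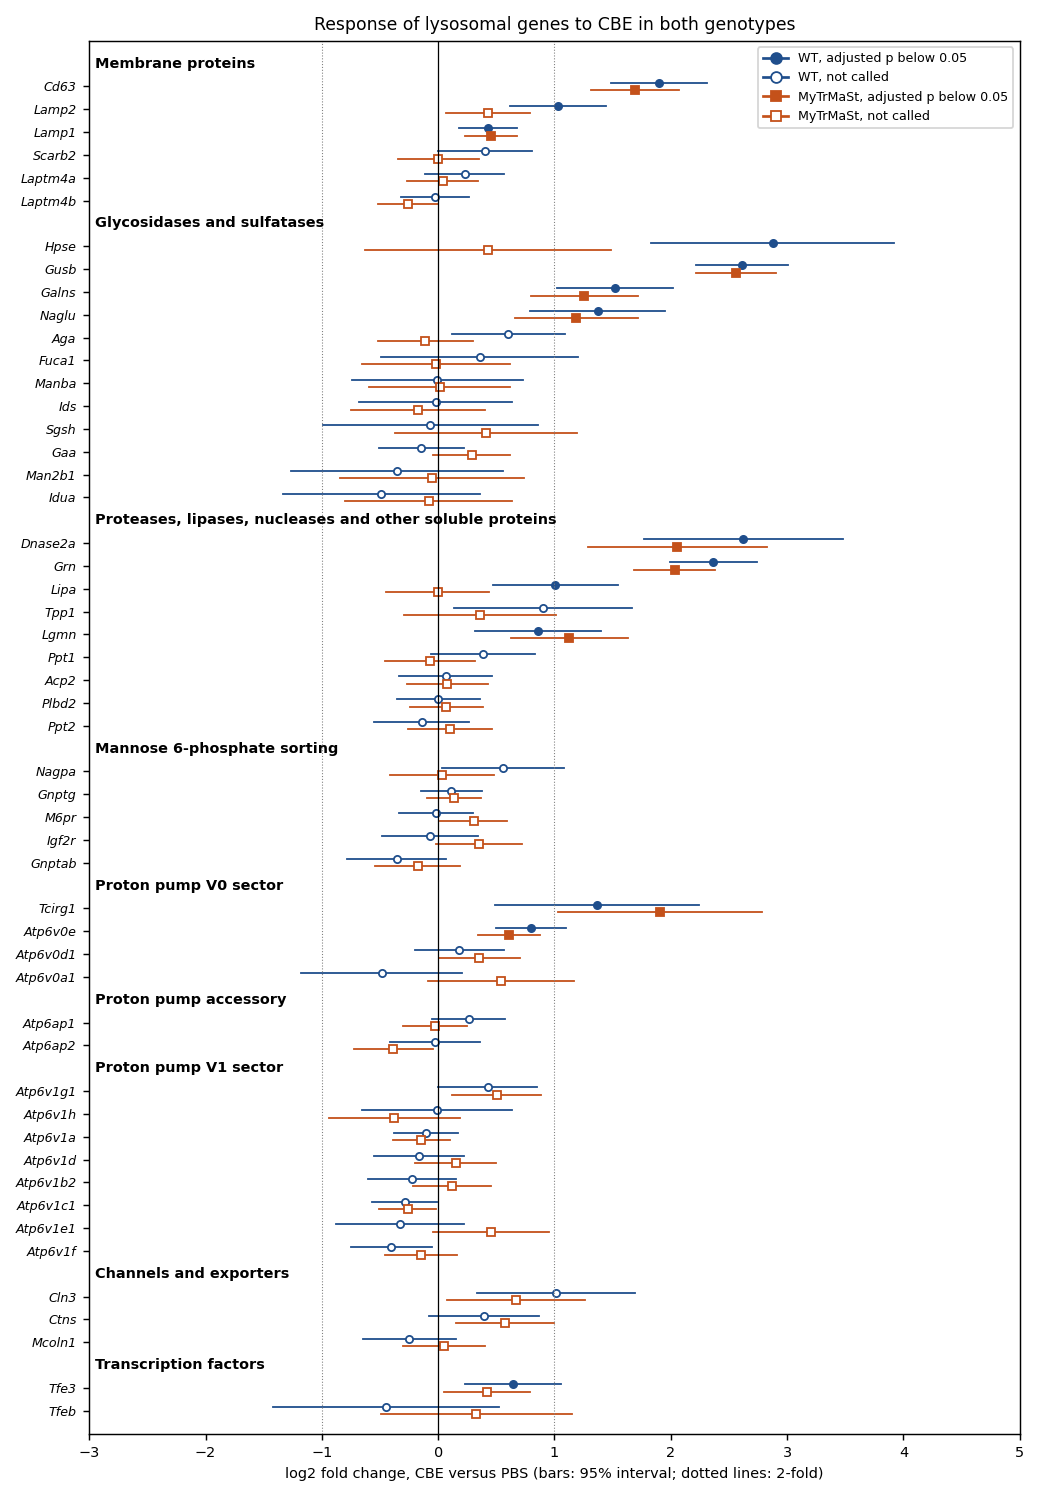
Log2 fold change (x axis) of each of the 51 tested lysosomal genes after CBE versus PBS, grouped by role and ordered within a role by the value in WT. Circles are WT and squares MyTrMaSt, filled where the adjusted p was below 0.05; bars are 95% intervals, and the filled points, 14 in WT and 10 in MyTrMaSt, all lie to the right of 0.

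The promoters of the set were searched for the binding motif of Tfeb and Tfe3. These factors bind the E-box CACGTG, preferably within the palindrome TCACGTGA, the core of the motif known as the CLEAR element; every TCACGTGA contains a CACGTG, and both read the same on either strand. In windows of 300 bases, 250 before and 50 after the start of the gene (RefSeq, GRCm38.p6), available for 44 of the 53 genes, CACGTG was found in 13 (29.5%), against 8.09% of the 27025 genes with such a window and 11.9% of the tested genes. TCACGTGA was found in 7 of 44 (15.9%), against 1.12% of all genes and 2.18% of tested genes. Within the set, 4 of 13 genes higher in WT (30.8%) and 9 of 31 others (29.0%) held CACGTG, while 1 of 13 (7.69%) and 6 of 31 (19.4%) held TCACGTGA. A match describes these letters only and is no evidence that a factor is bound there. The windows follow the RefSeq start, which can differ from the gene positions given below, taken from GENCODE. For Lgmn the match lies inside the gene position given.

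The sequences below show the matches of genes that rose in WT, followed by 4 of the 6 genes that hold the longer palindrome and were not called. Each is written 5′ to 3′ on the gene's strand, with CACGTG or TCACGTGA in capitals, and the longer stretch of Lamp1 is given because it holds 4 E-boxes.
Lamp1 (+ strand, chr8:13159089-13159160): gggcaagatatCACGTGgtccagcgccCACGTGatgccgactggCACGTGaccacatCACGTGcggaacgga
Naglu (+ strand, chr11:101070010-101070037): aaccttcaggtCACGTGgcccgaggtcg
Lgmn (− strand, chr12:102439125-102439152): ggaatgtctgtCACGTGgtccattttat
Atp6v0e (+ strand, chr17:26676387-26676416): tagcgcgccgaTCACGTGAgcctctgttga
Mcoln1 (+ strand, chr8:3500462-3500491): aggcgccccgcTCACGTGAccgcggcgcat
Atp6v0d1 (− strand, chr8:105566050-105566079): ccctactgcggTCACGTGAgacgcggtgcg
Atp6v1a (− strand, chr16:44139373-44139402): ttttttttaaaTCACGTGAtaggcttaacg
Cln3 (− strand, chr7:126583340-126583369): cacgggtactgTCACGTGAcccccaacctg
Lamp1, Naglu, Lgmn and Atp6v0e rose in both genotypes. Of the 7 genes with the full palindrome, Atp6v0e was called in both genotypes and the other 6, Mcoln1, Atp6v0d1, Atp6v1a, Cln3, Gnptg and Igf2r, in neither; the last 2 are not printed.

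Among the membrane proteins, 3 of 6 were higher in WT and 2 of 6 in MyTrMaSt, and the largest change was that of Cd63 (chr10:128900989-128912822, + strand, GRCm38 as are all positions given), a tetraspanin of late endosomes and lysosomes. Cd63 stood at 126.3, 118.5 and 113.9 CPM in the WT + PBS libraries and at 469, 376.4 and 490.5 CPM in those of WT + CBE. In the null mice it stood at 112.2, 135.8 and 87 CPM after PBS and at 340.2, 258, 380.9, 421.9 and 405.9 CPM after CBE. No library after CBE fell within the range of the PBS libraries in either genotype. The rise was 3.73-fold in WT (95% interval 2.8 to 4.97, adjusted p = 2.08e-06) and 3.23-fold in MyTrMaSt (2.48 to 4.2, adjusted p = 7.72e-06).

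Lamp1 and Lamp2 encode the main glycoproteins lining the lysosomal membrane. Lamp1 was measured at 950.3, 944.7 and 820.1 CPM in the WT + PBS libraries and at 1258, 1187 and 1204 CPM in those of WT + CBE. In MyTrMaSt its values were 836.3, 845.1 and 725.3 CPM after PBS and 1116, 1093, 1057, 1065 and 1164 CPM after CBE. The groups did not overlap in either genotype, yet the change was small, 1.34-fold in WT (adjusted p = 0.0274) and 1.37-fold in MyTrMaSt (adjusted p = 0.0136). The call in WT was lost without WT + PBS replicate 3 or without any 1 of the 3 WT + CBE libraries (log2 fold change 0.37 to 0.45, adjusted p = 0.0661 to 0.0824), and that in MyTrMaSt without MyTrMaSt + PBS replicate 3 (log2 fold change 0.39, adjusted p = 0.0874). Lamp1 shares exon sequence with Grtp1 on the opposite strand, and the strand setting of the counting is not given in the sources used here.

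Lamp2 (chrX:38401357-38456454, − strand), whose product also serves chaperone-mediated autophagy, had 29.78, 54.71 and 47.67 CPM in the WT + PBS libraries and 96.89, 97.15 and 83.76 CPM in those of WT + CBE. The null mice had 45.23, 52.31 and 59.88 CPM after PBS and 75.2, 73.98, 59.57, 64.99 and 78.29 CPM after CBE. All WT + CBE libraries lay above all others, while in MyTrMaSt the lowest CBE library fell just below the highest PBS library. Lamp2 rose 2.04-fold in WT (95% interval 1.54 to 2.72, adjusted p = 0.00165) and was not called in MyTrMaSt (1.34-fold, 1.04 to 1.73, adjusted p = 0.141), although the difference between the genotypes in this response did not pass either (interaction, log2 −0.61, 95% interval −1.15 to −0.06, adjusted p = 0.364). Without WT + PBS replicate 1 the same response of the null mice was called (log2 fold change 0.43, adjusted p = 0.0238). With the Xist level as a covariate, Lamp2 was still called in WT (log2 fold change 1.01, adjusted p = 0.0323). Scarb2, an integral protein of the lysosomal membrane, had a log2 fold change of 0.40 in WT (adjusted p = 0.2) and 0.00 in MyTrMaSt, and was called in WT only without WT + PBS replicate 1 (0.55, adjusted p = 0.0481). Laptm4a and Laptm4b, transmembrane proteins of late endosomes and lysosomes, had log2 fold changes of 0.23 and −0.03 in WT and 0.04 and −0.26 in MyTrMaSt, none of them called.

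The glycosidases and sulfatases remove sugars and sulfate groups from glycans, and 4 of the 12 tested were higher in WT and 3 of 12 in MyTrMaSt. Gusb (chr5:129989011-130003049, − strand), beta-glucuronidase, was at 9.02, 13 and 9.28 CPM in the WT + PBS libraries and at 69.5, 66.6 and 62.7 CPM in those of WT + CBE. Libraries of MyTrMaSt held 12.1, 15.6 and 14.4 CPM after PBS and 81.8, 86.4, 87.9, 85.7 and 75.5 CPM after CBE. The CBE libraries were tightly grouped, and those of the null mice lay above all those of WT. Gusb rose 6.11-fold in WT (95% interval 4.65 to 8.03, adjusted p = 2.46e-08) and 5.9-fold in MyTrMaSt (4.66 to 7.49, adjusted p = 1.71e-08), and the interaction was near 0 (log2 −0.05, 95% interval −0.56 to 0.46, adjusted p = 0.96). The level after CBE was not called different between the genotypes (log2 0.33, adjusted p = 0.493).

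Galns (chr8:122578242-122611463, − strand) and Naglu (chr11:101070012-101077672, + strand), which degrade keratan and heparan sulfate respectively, rose in both genotypes. Galns had 6.32, 8.01 and 11.4 CPM in the WT + PBS libraries, 27.9, 21.1 and 27.1 CPM in those of WT + CBE, 6.91, 6.6 and 6.69 CPM in MyTrMaSt + PBS and 18.3, 17.7, 13.8, 13.8 and 16.8 CPM in MyTrMaSt + CBE. All libraries of MyTrMaSt + CBE lay between those of WT + PBS and WT + CBE. Its rise was 2.87-fold in WT (adjusted p = 0.00022) and 2.39-fold in MyTrMaSt (adjusted p = 0.00142). Naglu had 25.3, 9.67 and 11.4 CPM in the WT + PBS libraries, 36.95, 38 and 31.9 CPM in those of WT + CBE, 10.7, 9.77 and 9.16 CPM in MyTrMaSt + PBS and 24.2, 21.4, 20.7, 18.2 and 27.8 CPM in MyTrMaSt + CBE. The high value in WT + PBS came from replicate 1. Naglu rose 2.58-fold in WT (adjusted p = 0.00268) and 2.27-fold in MyTrMaSt (adjusted p = 0.00635), and in WT its call was lost with the Xist level as a covariate (log2 fold change 1.29, adjusted p = 0.0521).

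Hpse (chr5:100679484-100719716, − strand), heparanase, an endoglycosidase that cleaves heparan sulfate, had few counts. There were 0, 3 and 6 counts in WT + PBS (0, 0.8289 and 2.53 CPM) and 43, 15 and 14 counts in WT + CBE (12.5, 7.04 and 8.44 CPM). The corresponding null values were 4, 8 and 3 counts after PBS (1.38, 2.11 and 1.06 CPM) and 4, 7, 3, 6 and 6 counts after CBE (1.56, 2.63, 1.22, 2.95 and 2.35 CPM). Only the WT + CBE libraries were high, and the null libraries after CBE overlapped both PBS groups. The fitted change was 7.34-fold in WT (95% interval 3.56 to 15.2, adjusted p = 0.000671; log2 2.88, against 3.85 without WT + PBS replicate 3 and 2.50 without WT + PBS replicate 2; adjusted p = 0.000816 with no filter on low counts) and 1.35-fold in MyTrMaSt (0.645 to 2.81, adjusted p = 0.649). The interaction had a log2 value of −2.45 (95% interval −4.03 to −0.87, adjusted p = 0.214), and of −3.42 without WT + PBS replicate 3.

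The other 8 tested enzymes of this class were called in neither genotype. Gaa, the acid alpha-glucosidase that degrades lysosomal glycogen, had the most counts, with 762.6, 434.6 and 501.2 CPM in WT + PBS and 505.1, 546.8 and 477.2 CPM in WT + CBE. MyTrMaSt libraries gave 398.1, 443.6 and 356.8 CPM after PBS and 439.5, 483.7, 534.1, 486.9 and 495.9 CPM after CBE. The groups overlapped, and the log2 fold changes were −0.15 (95% interval −0.51 to 0.22) in WT and 0.29 (−0.04 to 0.62) in MyTrMaSt; without WT + PBS replicate 1 the latter was called (0.29, adjusted p = 0.0453). Aga, which splits asparagine from N-glycans, had a log2 fold change of 0.60 in WT (adjusted p = 0.108) and −0.11 in MyTrMaSt. Manba, Man2b1, Fuca1, Ids, Idua and Sgsh, which remove mannose, fucose, iduronate and sulfate, ranged from −0.49 (Idua) to 0.36 (Fuca1) in WT.

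**Figure D2:**
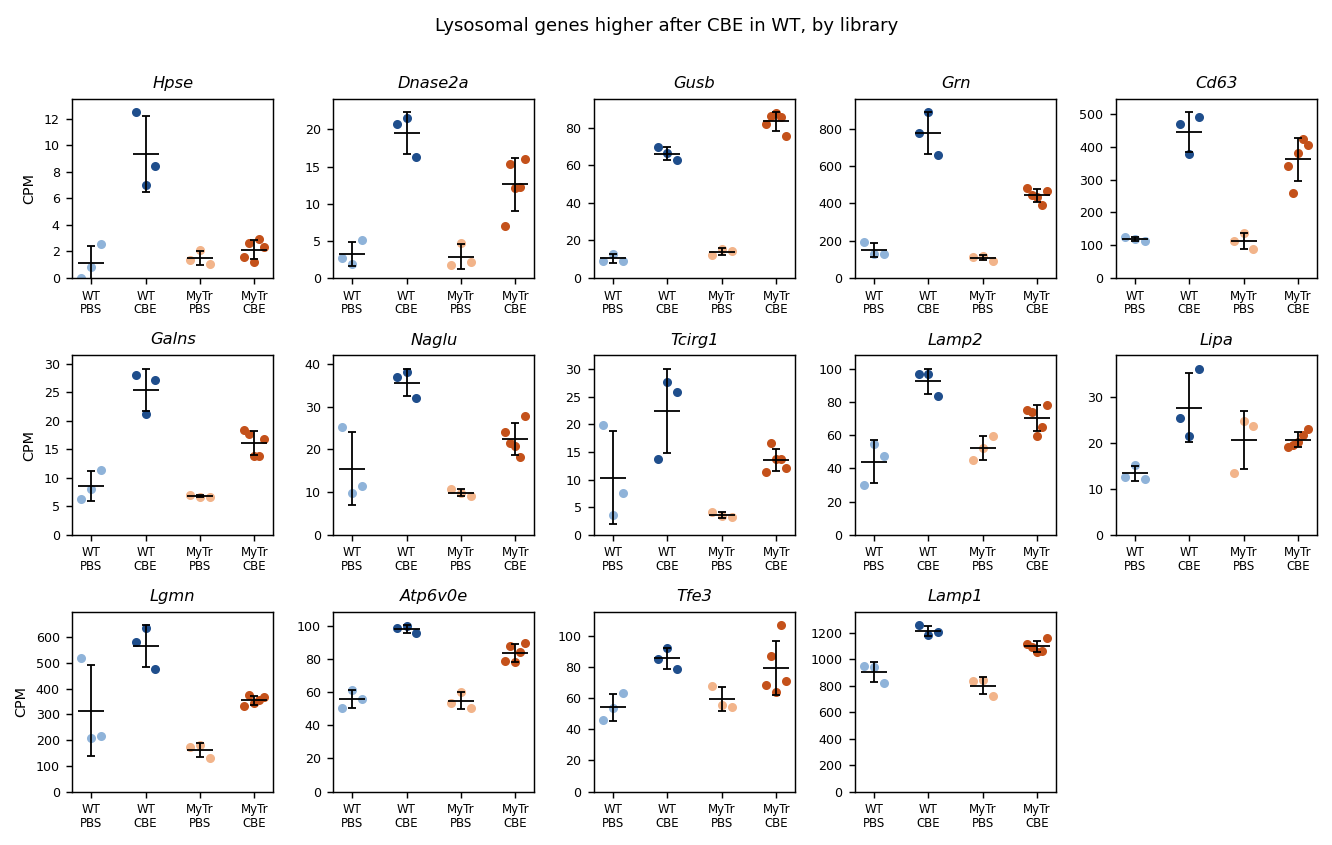
CPM (y axis, from 0) of the 14 lysosomal genes higher after CBE in WT, by library, in the 4 groups (MyTr, MyTrMaSt); points are libraries, and bars the group mean and SD. Hpse was high only in WT + CBE, Gusb was highest in MyTrMaSt + CBE, and in Lgmn and Tcirg1 WT + PBS replicate 1 lies well above the rest of its group.

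Among the other soluble proteins, 4 of 9 were higher in WT and 3 of 9 in MyTrMaSt. Grn (chr11:102430315-102437048, + strand) encodes progranulin, a secreted protein delivered to lysosomes and processed there into granulins. It stood at 194.9, 131.2 and 129.1 CPM in the WT + PBS libraries and at 776.3, 888.4 and 660.4 CPM in those of WT + CBE. In the null genotype there were 115, 116.2 and 92.6 CPM after PBS and 480, 446.1, 432.8, 388.9 and 465.8 CPM after CBE. Within each treatment every null library lay below every WT library. Grn rose 5.16-fold in WT (95% interval 3.97 to 6.69, adjusted p = 4.29e-08) and 4.1-fold in MyTrMaSt (3.22 to 5.22, adjusted p = 3.02e-07). Grn shares exon sequence with Fam171a2 on the opposite strand.

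Dnase2a (chr8:84908560-84922915, + strand), the acid nuclease that digests DNA in lysosomes, had 2.71, 1.93 and 5.06 CPM in the WT + PBS libraries and 20.7, 21.6 and 16.3 CPM in those of WT + CBE. The null mice had 1.73, 4.76 and 2.11 CPM after PBS and 7.01, 15.4, 12.2, 12.3 and 16 CPM after CBE. CBE and PBS libraries did not overlap in either genotype. The rise was 6.16-fold in WT (95% interval 3.4 to 11.1, adjusted p = 0.000221) and 4.16-fold in MyTrMaSt (2.44 to 7.08, adjusted p = 0.00166). The log2 value in MyTrMaSt was 2.06, and 2.69 without MyTrMaSt + PBS replicate 2. Dnase2a shares exon sequence with Mast1 on the opposite strand. Sgsh, Idua, Gnptab, Gnptg, Ppt1, Acp2, Plbd2, Atp6v1e1, Atp6v1h and Cln3 also overlap exons of a gene on the other strand, and Ppt2 those of a gene on its own strand, so counts of all these genes could include reads of a neighbour.

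Lgmn (chr12:102394084-102439813, − strand), legumain, an asparaginyl endopeptidase that also processes other lysosomal proteases, had 518.9, 208.3 and 216.4 CPM in the WT + PBS libraries and 581.3, 635.5 and 477.2 CPM in those of WT + CBE. Libraries of MyTrMaSt held 172.6, 182 and 132.1 CPM after PBS and 330.8, 374.4, 344.1, 355 and 367.2 CPM after CBE. The null groups were well apart, but in WT the PBS replicate 1 exceeded the lowest CBE library. Lgmn rose 2.18-fold in MyTrMaSt (adjusted p = 0.00641) and 1.82-fold in WT (adjusted p = 0.0399). The call in WT was lost on leaving out any 1 of 10 libraries, which were WT + PBS replicates 2 and 3, the 3 WT + CBE libraries, MyTrMaSt + PBS replicates 1 and 2 and MyTrMaSt + CBE replicates 1, 2 and 3 (log2 fold change 0.64 to 0.97, adjusted p = 0.0513 to 0.149). Without WT + PBS replicate 1 the rise in WT was 1.42 on the log2 scale. In MyTrMaSt the call was lost without MyTrMaSt + PBS replicate 3 (log2 fold change 1.01, adjusted p = 0.0601).

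Lipa (chr19:34492318-34527474, − strand), the acid lipase that splits cholesteryl esters and triglycerides, had 12.6, 15.2 and 12.2 CPM in the WT + PBS libraries and 25.3, 21.6 and 36.2 CPM in those of WT + CBE. The corresponding null values were 13.5, 24.8 and 23.6 CPM after PBS and 19.1, 19.5, 20.3, 21.7 and 23.1 CPM after CBE. The WT groups did not overlap, and the null CBE libraries lay inside the range of their controls. Lipa rose 2.01-fold in WT (95% interval 1.38 to 2.92, adjusted p = 0.0161), with no call without WT + PBS replicate 3 (log2 fold change 0.94, adjusted p = 0.0524) or WT + CBE replicate 3 (0.81, adjusted p = 0.08). In MyTrMaSt the fitted fold was 0.998 (0.734 to 1.36), and the interaction did not pass (log2 −1.01, 95% interval −1.71 to −0.31, adjusted p = 0.246). Tpp1, a tripeptidyl peptidase, had a log2 fold change of 0.90 in WT (adjusted p = 0.129) and 0.36 in MyTrMaSt. Ppt1, Ppt2, Acp2 and Plbd2, 2 thioesterases, a phosphatase and a phospholipase-like protein, ranged from −0.14 (Ppt2) to 0.38 (Ppt1) in WT and from −0.07 (Ppt1) to 0.10 (Ppt2) in MyTrMaSt.

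None of the 5 genes of mannose 6-phosphate sorting was called in either genotype. Gnptg, the gamma subunit of the phosphotransferase that starts the tag, had 160.6, 143.1 and 138.8 CPM in the WT + PBS libraries and 171.7, 157.7 and 147.6 CPM in those of WT + CBE. MyTrMaSt libraries gave 135.7, 141.1 and 138.8 CPM after PBS and 149.6, 152.1, 154.4, 151.1 and 155 CPM after CBE. The WT groups overlapped; the null groups did not, but by little, and the log2 fold changes of 0.11 and 0.14 had 95% intervals of −0.15 to 0.38 and −0.10 to 0.37. Gnptab, the catalytic precursor of the same enzyme, Nagpa, which uncovers the tag, and M6pr and Igf2r, its receptors, ranged from −0.36 (Gnptab) to 0.56 (Nagpa) in WT and from −0.18 (Gnptab) to 0.35 (Igf2r) in MyTrMaSt. The summed level of the 5 genes was 392.6 ± 46.8 CPM (SD, n = 3) in WT + PBS, 389.6 ± 26.7 (n = 3) in WT + CBE, 340.3 ± 9.08 (n = 3) in MyTrMaSt + PBS and 375.1 ± 23.4 (n = 5) in MyTrMaSt + CBE.

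Of the 14 tested genes of the proton pump, 2, both of the V0 sector, were higher in each genotype and 0 were lower. Atp6v0e, a small V0 subunit, had 50.5, 61.3 and 56.1 CPM in the WT + PBS libraries and 99.2, 100 and 95.8 CPM in those of WT + CBE. In the null genotype there were 53.5, 60.5 and 50.7 CPM after PBS and 78.7, 88.25, 78.2, 84.7 and 89.6 CPM after CBE. The null libraries after CBE lay between the controls and WT + CBE, touching neither. Atp6v0e rose 1.74-fold in WT (95% interval 1.41 to 2.15, adjusted p = 0.000979) and 1.53-fold in MyTrMaSt (1.27 to 1.84, adjusted p = 0.00605).

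Tcirg1 (chr19:3896050-3907133, − strand) encodes the a3 isoform of the large V0 subunit, known from osteoclasts and phagocytes. It had 19.9, 3.59 and 7.59 CPM in the WT + PBS libraries and 13.7, 27.7 and 25.9 CPM in those of WT + CBE. The null mice had 4.14, 3.43 and 3.17 CPM after PBS and 11.3, 16.5, 13.8, 13.8 and 12.1 CPM after CBE. The null groups were well apart, whereas WT + PBS replicate 1 exceeded the lowest WT + CBE library. Tcirg1 rose 3.74-fold in MyTrMaSt (95% interval 2.04 to 6.87, adjusted p = 0.00799) and 2.58-fold in WT (1.41 to 4.74, adjusted p = 0.043). The call in WT was lost on leaving out any 1 of 11 libraries (log2 fold change 0.83 to 1.38, adjusted p = 0.0517 to 0.176); the exceptions were WT + PBS replicate 1, without which the log2 fold change was 2.04, WT + CBE replicate 1 and MyTrMaSt + CBE replicate 4. In MyTrMaSt it was lost without MyTrMaSt + PBS replicate 3 (log2 fold change 1.84, adjusted p = 0.0515). Atp6v0a1, the a1 isoform of the same subunit that prevails in neurons, had log2 fold changes of −0.49 (95% interval −1.18 to 0.21) in WT and 0.54 (−0.09 to 1.16) in MyTrMaSt. Atp6v0d1, another V0 subunit, had 427.8, 583.9 and 501.2 CPM in the WT + PBS libraries, 541.8, 607.3 and 570 CPM in those of WT + CBE, 543.1, 553.2 and 306.1 CPM in MyTrMaSt + PBS and 600.4, 605, 593.3, 615.4 and 576.2 CPM in MyTrMaSt + CBE. Its control libraries were scattered and its CBE libraries were not, and neither change was called (log2 0.18 and 0.35, adjusted p = 0.598 and 0.2).

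None of the 8 V1 subunits was called in either genotype, and for all 8 the 95% interval lay inside 2-fold in both directions in both genotypes, between log2 −0.87 and 0.85 in WT and −0.94 and 0.95 in MyTrMaSt. Their median log2 fold change was −0.19 in WT and −0.01 in MyTrMaSt. Atp6v1e1, part of a peripheral stalk, had 1065, 664.8 and 656.8 CPM in the WT + PBS libraries and 619.2, 624.2 and 657.4 CPM in those of WT + CBE. Libraries of MyTrMaSt held 310.1, 589.1 and 460 CPM after PBS and 496.8, 796.5, 397.6, 787.2 and 622.8 CPM after CBE. The spread within the null groups was wider than the difference between them, and the log2 fold changes were −0.33 in WT (adjusted p = 0.493) and 0.45 in MyTrMaSt (adjusted p = 0.261). Atp6v1a, the catalytic subunit, differed by −0.11 and −0.15.

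Without WT + PBS replicate 1, calls appeared among the V1 subunits and the accessory proteins. Atp6v1g1, of the peripheral stalk, was then higher in WT (log2 fold change 0.76, adjusted p = 0.000881) and in MyTrMaSt (0.51, adjusted p = 0.00404), against 0.43 and 0.50 with all libraries. Atp6v1h, a regulatory subunit, was then lower in MyTrMaSt (log2 fold change −0.37, adjusted p = 0.0168), as was Atp6ap2, an accessory protein also known as the prorenin receptor (−0.38, adjusted p = 0.0189). That library belongs to neither null group. The fit of the null groups alone called the same genes in MyTrMaSt. These were Atp6v1g1 (log2 fold change 0.51, adjusted p = 0.0131), Atp6v1h (−0.37, adjusted p = 0.0345) and Atp6ap2 (−0.38, adjusted p = 0.041). The cause of these calls was not tested. Atp6ap1, the other accessory protein, had 295.1, 450.9 and 374.2 CPM in the WT + PBS libraries, 423.3, 433.2 and 493.5 CPM in those of WT + CBE, 473.4, 491.4 and 478 CPM in MyTrMaSt + PBS and 501.1, 515.3, 443, 465.8 and 436.4 CPM in MyTrMaSt + CBE. Its groups overlapped within each genotype, with log2 fold changes of 0.26 and −0.03.

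**Figure D3:**
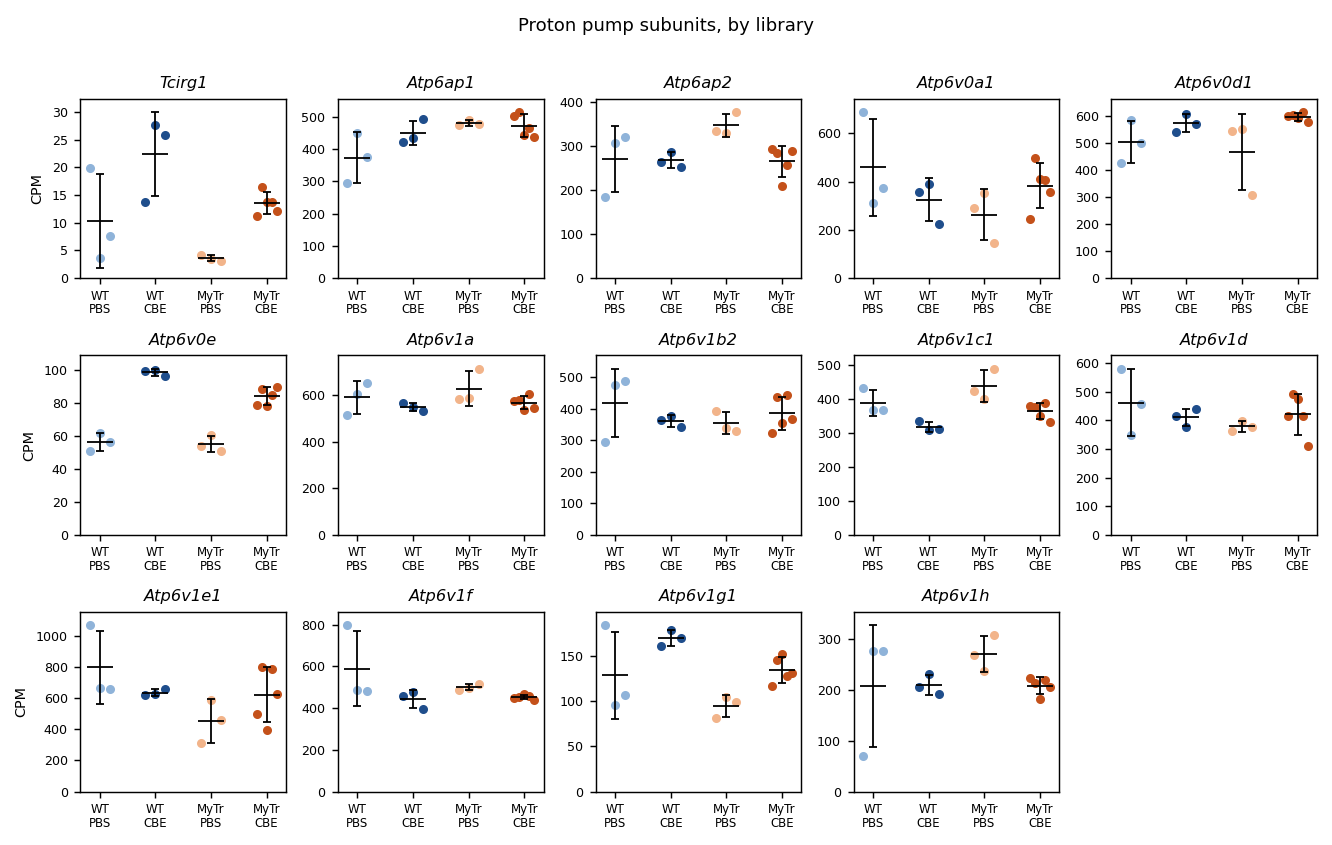
CPM (y axis, from 0) of the 14 proton pump genes in the table, by library, in the 4 groups (MyTr, MyTrMaSt); points are libraries, and bars the group mean and SD. Tcirg1 and Atp6v0e are higher after CBE in both genotypes, while the other 12 genes were not called. In MyTrMaSt, Atp6ap2, Atp6v1c1, Atp6v1f and Atp6v1h were lower after CBE without overlap, and Atp6v0d1 and Atp6v1g1 higher. In WT, Atp6v1c1 and Atp6v1f were lower without overlap. Of all tested genes, 10.7% were lower and 11.8% higher without overlap in MyTrMaSt, and 12.8% lower in WT.

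Of the channels and exporters none was called, although Cln3 came close in WT. Cln3, the membrane protein lost in a juvenile form of neuronal ceroid lipofuscinosis, had 5.41, 7.18 and 15.6 CPM in the WT + PBS libraries, 20.4, 21.6 and 16.9 CPM in those of WT + CBE, 13.1, 9.51 and 7.75 CPM in MyTrMaSt + PBS and 14, 11.6, 15.8, 19.2 and 20.4 CPM in MyTrMaSt + CBE. Its log2 fold changes were 1.01 in WT (adjusted p = 0.0536) and 0.67 in MyTrMaSt (adjusted p = 0.156). DESeq2 and limma called it in WT (adjusted p = 0.0297 and 0.0359), as did the fit without WT + PBS replicate 3 (1.57, adjusted p = 0.00541). Mcoln1, the calcium channel of the lysosome, had 117.3, 61.3 and 93.7 CPM in the WT + PBS libraries, 75.1, 76.5 and 73.5 CPM in those of WT + CBE, 68.7, 79.5 and 65.9 CPM in MyTrMaSt + PBS and 66.2, 78.1, 77, 72.9 and 75.5 CPM in MyTrMaSt + CBE. The groups overlapped, with log2 fold changes of −0.25 and 0.05. Ctns, the cystine exporter, had a log2 fold change of 0.39 in WT (adjusted p = 0.304) and of 0.58 in MyTrMaSt (adjusted p = 0.087), the latter called without WT + PBS replicate 1 (0.58, adjusted p = 0.0364).

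Of the transcription factors, Tfe3 was higher in WT. It had 46, 53.6 and 63.3 CPM in the WT + PBS libraries, 85.2, 92.5 and 78.9 CPM in those of WT + CBE, 68, 55.7 and 54.2 CPM in MyTrMaSt + PBS and 68.2, 87.1, 64, 106.8 and 71.2 CPM in MyTrMaSt + CBE. The WT groups did not overlap and the null groups did. Tfe3 rose 1.56-fold in WT (95% interval 1.17 to 2.08, adjusted p = 0.0446), a call lost on leaving out any 1 of 9 libraries, namely WT + PBS replicates 1 and 2, the 3 WT + CBE libraries, MyTrMaSt + PBS replicate 2 and MyTrMaSt + CBE replicates 1, 2 and 5 (log2 fold change 0.57 to 0.71, adjusted p = 0.0514 to 0.148). In MyTrMaSt the fold was 1.34 (1.04 to 1.72, adjusted p = 0.153). Tfeb had few counts, 3.8 to 20.8 CPM over the 6 WT libraries and 4.23 to 10.3 CPM over the 8 null libraries, and its log2 fold changes of −0.45 and 0.33 had intervals of −1.42 to 0.52 and −0.49 to 1.15. The highest of these libraries was WT + PBS replicate 1, without which the value in WT was 0.21. Both factors are controlled largely by phosphorylation and entry into the nucleus, which these data do not measure.

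The null mice after CBE had less of 2 of the 51 genes than WT mice after CBE (3.92%), against 2.35% of all tested genes that were lower and 2.54% that differed in either direction. Grn was 0.571 of its WT level (95% interval 0.461 to 0.708, log2 −0.81, adjusted p = 0.00262). Hpse, which was tested only because of its WT + CBE level, was 0.224 of its WT level (0.129 to 0.391, log2 −2.16, adjusted p = 0.00184), a call lost without WT + CBE replicate 1 (log2 −1.84, adjusted p = 0.0553). 10 genes had all null libraries below all WT libraries after CBE and 1, Gusb, had them all above, 19.6% and 1.96% of the 51 against 6.02% and 3.94% of all tested genes. The 10 were Grn, Hpse, Lamp1, Lamp2, Galns, Naglu, Dnase2a, Lgmn, Atp6v0e and Atp6v1g1. Without WT + PBS replicate 1, Galns (log2 −0.67, adjusted p = 0.0325), Naglu (−0.68, adjusted p = 0.0118) and Lgmn (−0.69, adjusted p = 0.000281) were called lower too.

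After PBS, 0 of the 51 genes differed between the genotypes by edgeR, against 0.186% of all tested genes, with 10 of 51 below an unadjusted p of 0.05, against 16.8%; DESeq2 called 1, Lgmn, and limma 0. All null libraries lay below all WT libraries for 5 of the 51 genes (9.8%; Grn, Lgmn, M6pr, Igf2r and Atp6v1e1) and above them for 3 (5.88%; Laptm4b, Atp6ap1 and Atp6ap2), against 10.1% of all tested genes in each direction. Leaving out WT + PBS replicate 2 gave 3 calls, Gaa, Lgmn and Tcirg1, each of them high in replicate 1. The test that answers the design most directly, whether CBE changed a gene by a different amount in the 2 genotypes, called 0 of 51 genes by edgeR, DESeq2 and limma, against 0.489% of all tested genes by edgeR, with 6 of 51 below an unadjusted p of 0.05, against 12.5%. The interval of the difference lay inside 2-fold in both directions for 32 of the 51, including Gusb, Cd63, Grn, Galns, Naglu, Lamp1 and Atp6v0e, but not for Hpse, Lipa, Lamp2, Dnase2a or Tcirg1. A larger response in 1 genotype was therefore not shown for any gene of the set, the 4 called in WT alone (Lamp2, Hpse, Lipa and Tfe3) included.

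Markers of several other cell types changed after CBE. The summed level of 14 microglial markers that are not lysosomal ran from 639.7 to 983.7 CPM over the WT + PBS libraries, from 3533 to 4063 over those of WT + CBE, from 558.6 to 587.7 over those of MyTrMaSt + PBS and from 2015 to 2245 over those of MyTrMaSt + CBE, and 11 of 14 were higher in WT and 10 of 14 in MyTrMaSt, with 0 lower. Over all tested genes the shares were 6.7% higher and 3.89% lower in WT, 5.32% and 2.44% in MyTrMaSt, and 2.35% lower in the null mice than in WT after CBE. The called log2 fold changes in WT ran from 0.98 (Csf1r) and 1.01 (Olfml3) to 2.72 (Tyrobp) and 2.90 (C1qc). Between the genotypes, 4 of the 14 (Aif1, C1qa, C1qb and C1qc) were lower in the null mice after CBE and 0 were called after PBS. Neuronal markers summed to between 8791 and 10078 CPM with PBS and between 6293 and 6785 CPM with CBE in WT, with 6 of 14 lower in WT and 2 of 14 in MyTrMaSt, and oligodendrocyte markers had 9 of 12 lower in WT and 2 of 12 in MyTrMaSt. The called log2 fold changes of neuronal markers in WT ran from −1.60 (Slc17a7) and −0.98 (Thy1) to −0.91 (Tubb3) and −0.79 (Eno2), and those of oligodendrocyte markers from −1.81 (Ugt8a) and −1.48 (Ermn) to −0.68 (Mbp) and −0.66 (Mobp). Astrocyte markers had 6 of 12 higher and 1 lower in WT and 5 higher in MyTrMaSt, with called log2 fold changes in WT from −0.57 (S100b) and 0.66 (Slc1a3) to 2.93 (Vim) and 3.31 (Gfap). Endothelial markers had 0 of 8 called in WT, with 1 higher and 1 lower in MyTrMaSt, and of the blood markers only 1 was listed, which was not called. Between the genotypes 0 of the neuronal and endothelial markers were called by edgeR after either treatment, while 2 oligodendrocyte markers (Cldn11 and Mobp) were higher and 1 astrocyte marker (Vim) lower in the null mice after CBE and 0 of either list after PBS. The part of these cell types in the lysosomal changes was not tested.

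**Figure D4:**
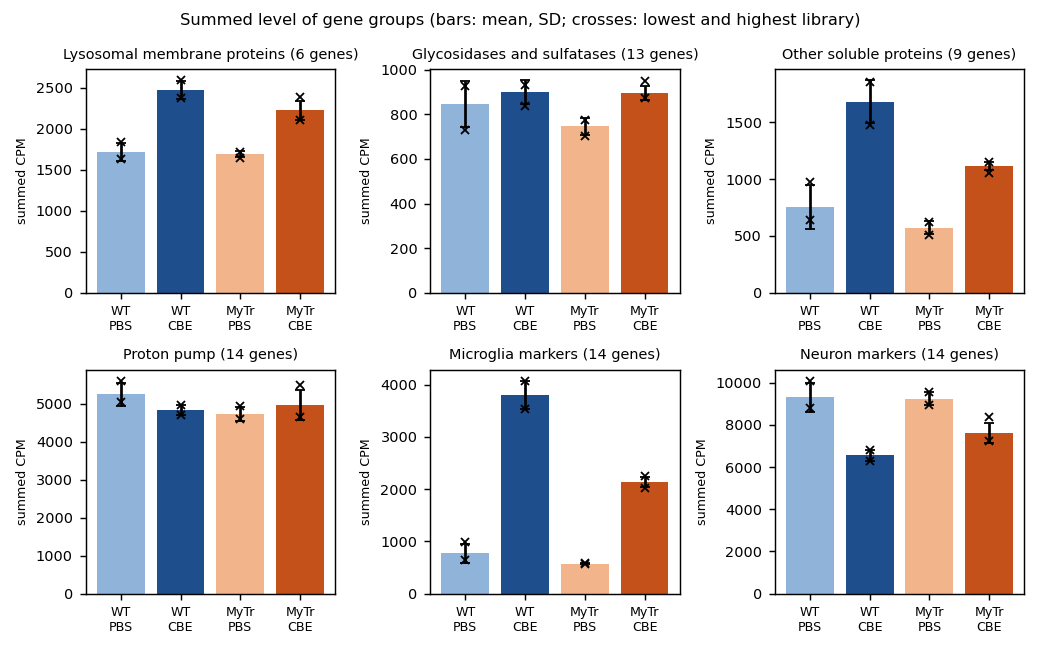
Summed CPM (y axis, from 0) of 4 groups of lysosomal genes and of microglial and neuronal markers in the 4 groups of mice (MyTr, MyTrMaSt). Bars are means and SD, crosses the lowest and highest library; membrane proteins and other soluble proteins stand higher after CBE, as do the microglial markers, whose range is 3533 to 4063 CPM in WT + CBE, while the proton pump keeps to between 4609 and 5605 CPM in all groups.

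Other lysosomal genes were counted in 4 further lists, to be read against the same shares of all tested genes. Of 32 other hydrolases and their activators, 10 were higher in WT and 9 in MyTrMaSt, with 0 lower in either. After CBE the cathepsins Ctsc, Ctsh, Ctsl, Ctss and Ctsz were among those lower in the null mice than in WT, and the interaction was called for 2, Ctsc (log2 −1.70, adjusted p = 0.0302) and Ctss (−1.18, adjusted p = 0.0291), against 0.489%. The largest and smallest called changes in WT were those of the cathepsins Ctsc (log2 3.09 in WT, 1.40 in MyTrMaSt) and Ctsz (2.75 and 2.41), and of alpha-galactosidase Gla (1.27 and 0.40, the latter not called) and acid ceramidase Asah1 (0.91 and 0.17, the latter not called). Of 29 other lysosomal membrane proteins, 6 were higher and 2 lower in WT and 5 higher and 1 lower in MyTrMaSt, led by the peptide transporter Slc15a3 (5.35 and 4.05) and the macrophage protein Cd68 (3.79 and 3.02), with Abcb9 (−0.65 and −0.72) and Lamp5 (−0.45 and −0.34, the latter not called) at the other end. In this list 4 (Cd68, Slc11a1, Slc15a3 and Laptm5) were lower in the null mice after CBE. Of 12 other proton pump subunits and assembly factors, 0 were higher in either genotype, and 1, Atp6v0b, was lower in WT (log2 −1.22, adjusted p = 0.0406). Of 22 genes of lysosome positioning and mTORC1 docking, 2 were higher and 1 lower in WT and 1 higher and 1 lower in MyTrMaSt, shares near those of all tested genes. Those called in WT were Fnip2 (0.98 in WT), Rragc (0.43) and Lamtor1 (−0.68).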

How the data were processed

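Brain RNA of 14 mice was sequenced as bulk MARSseq libraries. The authors trimmed reads with cutadapt, mapped them to mm10 with hisat, kept uniquely mapped reads and counted them per gene with HTSeq; these deposited counts are whole numbers for each gene symbol, without normalization. Annotation, strand setting and any use of molecular identifiers are not given in the sources used here, and intervals cover the spread between libraries as fitted. The deposited normalized values and the authors' own comparisons (fold changes and p-values) were not used.

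The counts were fitted in R 4.3.3 with edgeR 4.0.16 (quasi-likelihood test) over all 14 libraries, with TMM scaling, edgeR's default filter on low counts and a mean for each of the 4 groups; p-values were adjusted by Benjamini-Hochberg over the 11852 genes tested, and an adjusted p below 0.05 is a call. CPM are counts per 1000000, scaled by TMM. In WT the simulated fold changes of 2 and 4 were recovered for 68% and 99% of 100 genes each (11671 genes tested). The changed genes were drawn only from those with higher mean counts. The recovery therefore does not cover genes with few counts. Replicate numbers were not used to pair the mice. DESeq2 1.42.0, limma 3.58.1, other filters and scalings, Xist as a covariate and leaving out each library were alternatives. Replicates were separate mice, but the smallest groups have 3.

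Genes printed library by library were those called and at least 2-fold changed by CBE in either genotype, those called between genotypes, and the gene with the highest mean of each role; Atp6v0e and Cln3 were added after their values were seen. From other lists, the 2 highest and 2 lowest called changes in WT are named. The genes and lists were chosen with earlier results of these data known. Gene overlaps came from GENCODE M21, promoters from RefSeq (GRCm38.p6).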

Additional observations from a re-analysis of the deposited data

Results flagged for a closer look

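In groups of 4 or more libraries, 1 of the 52 lysosomal genes had a library far from the rest of its group by Dixon's criterion, which chance alone gives for about 5% of groups. Ppt1, a palmitoyl thioesterase, stood at 75.8 CPM in MyTrMaSt + CBE replicate 3, while the next lowest library of that group was at 91.6 and the highest at 96.9 CPM. Ppt1 was called in no comparison.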

How the results depend on the processing

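Among the 14 genes higher in WT, 8 (Lamp2, Cd63, Gusb, Grn, Galns, Dnase2a, Atp6v0e and Hpse) were called under every alternative that tested them. So were 6 of the 10 in MyTrMaSt (Cd63, Gusb, Grn, Naglu, Galns and Dnase2a) and, between genotypes after CBE, Grn. The stricter filter left Hpse, Dnase2a and Galns untested. The number higher in WT was 8 with the libraries of the WT groups alone, which estimates the spread from fewer mice, 9 with the Xist level as a covariate and 9 to 15 on leaving out single libraries. The number lower in MyTrMaSt was 2 in the fit of the null groups alone (Atp6ap2 and Atp6v1h) and 0 to 2 on leaving out single libraries, with 2 without WT + PBS replicate 1. Between genotypes after CBE, 1 gene was called with at least 10 counts in every library, which removes Hpse, 4 in the fit of the groups compared alone, and 1 (without WT + CBE replicate 1) to 5 (without WT + PBS replicate 1) on leaving out single libraries. After PBS, DESeq2 called 1 gene, and leaving out single libraries gave 0 to 3, with 3 without WT + PBS replicate 2. The median log2 fold change ran from 0.14 to 0.27 in WT and from 0.13 to 0.24 in MyTrMaSt over the same exercise, highest without WT + PBS replicate 3 and without MyTrMaSt + CBE replicate 5. The cause of these shifts was not tested unless named. No call reversed, and the interaction gave 0 calls under every alternative run.

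Same-numbered libraries deviated from their group means with correlations of −0.172 to 0.165 over 18 pairs, 3 of them above 0.1. Differently numbered libraries had −0.215 to 0.22 over 54 pairs. Whether same-numbered mice shared a litter or a batch is not given in the sources used here, and these values cannot decide it. With the replicate number as a replicate block, 11 genes were higher in WT (without Lamp1, Tcirg1 and Tfe3) and 7 in MyTrMaSt (without Atp6v0e, Lamp1 and Tcirg1), 2 differed between genotypes after CBE, 0 after PBS, and the interaction gave 0 calls.

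Depth limits the genes with fewer than 10 counts in at least 1 library (Hpse, Fuca1, Fuca2, Man2b1, Manba, Idua, Sgsh, Galns, Dnase2a, Tpp1, Tcirg1, Cln3 and Tfeb), for which a change in either direction can be missed. A planned comparison of protein sequence features was not run.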
